A study of Sus scrofa with 8 samples.

Results

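The interferon-stimulated genes are the transcripts that a cell makes in quantity once an interferon has bound its receptor. A list of 39 such genes was looked up by gene symbol in a table of 18898 pig genes, and 36 of them had a row. IFIT3, OASL and XAF1 were not analysed here, and ISG20 was too low for the test, so 35 genes were tested. Membership was set by gene symbol alone and not by any measured value, although the list was drawn up with earlier results of these data known.

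The libraries came from condylar cartilage cells of the temporomandibular joint, the jaw joint, of pigs (Sus scrofa). All 8 samples had the genotype WT, and the labels give no age, sex or strain. The control group held 4 libraries labelled Control. The osteoarthritis group held 4 libraries from a surgical model, in which a 5.0 mm hole was punched through the posterior-lateral part of the articular disc while the condyle was shielded and the disc attachments were kept. The labels call the samples of each group biological replicates. They do not say whether control joints were opened, how long after surgery tissue was taken, or whether each library came from its own animal. RNA was depleted of rRNA and sequenced in bulk. The title of the series points to Wnt inhibition and chondrocyte identity, and neither it nor the design text speaks of interferon.

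Type I and type III interferons act through receptors that switch on the kinases JAK1 and TYK2, which phosphorylate STAT proteins. STAT2 and IRF9 are subunits of ISGF3, the transcription factor complex that binds the promoters of most genes on the list. The products sense foreign RNA, block translation, degrade RNA, trap viral particles, tag proteins with the ubiquitin-like protein ISG15 and load peptides for antigen presentation. Several of them, among them STAT2, IRF7, IRF9 and the RNA sensors, feed back on the pathway, so that the genes often move together. Most of these roles were worked out in human and mouse cells.

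Total estimated counts ran from 11354200 to 25412939 per library, of which 2593 to 34846 fell on the 36 genes. Levels are given below as FPKM scaled between libraries by TMM, which corrects for gene length, library size and composition. All 10 chondrocyte markers were detected in every library, with summed levels of 1385 to 3293 FPKM in controls and 3992 to 27690 FPKM in osteoarthritis. The sums were 27690 and 23782 FPKM in osteoarthritis replicates 1 and 2, against 3992 and 8710 FPKM in replicates 3 and 4. The libraries were uneven in other ways. Control replicates 1 and 3 held osteoclast markers at 6.18 and 10.4 FPKM in sum, against 730 and 875 FPKM in control replicates 2 and 4. Myeloid markers summed to 35.8 and 38.5 FPKM in control replicates 1 and 3 and to 398 and 483 FPKM in control replicates 2 and 4. Basal epithelial markers summed to 57.8 to 240 FPKM in controls and 1.03 to 2.45 FPKM in osteoarthritis. Control replicate 2 had the lowest scaling factor, 0.4239, and the others ran from 0.8732 to 1.549. In bulk tissue, fewer cells of a type and less RNA per cell cannot be told apart.

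No interferon-stimulated gene passed the test between the groups. Instead, 1 library stood apart. Osteoarthritis replicate 4 held the highest level of 27 of the 35 genes, among them RSAD2, MX1, MX2, OAS1, IFIT1 and IFI6, while osteoarthritis replicates 1 and 2 tended to lie below the controls. Summed over the 36 genes, the level was 151.6, 134.8, 150.6 and 166.8 FPKM in controls 1 to 4. It was 99.98, 84.3, 121.5 and 324.2 FPKM in osteoarthritis replicates 1 to 4. The last of these was 1.94 times the next highest library, and the other 3 osteoarthritis libraries lay below all 4 controls.

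**Figure D1:**
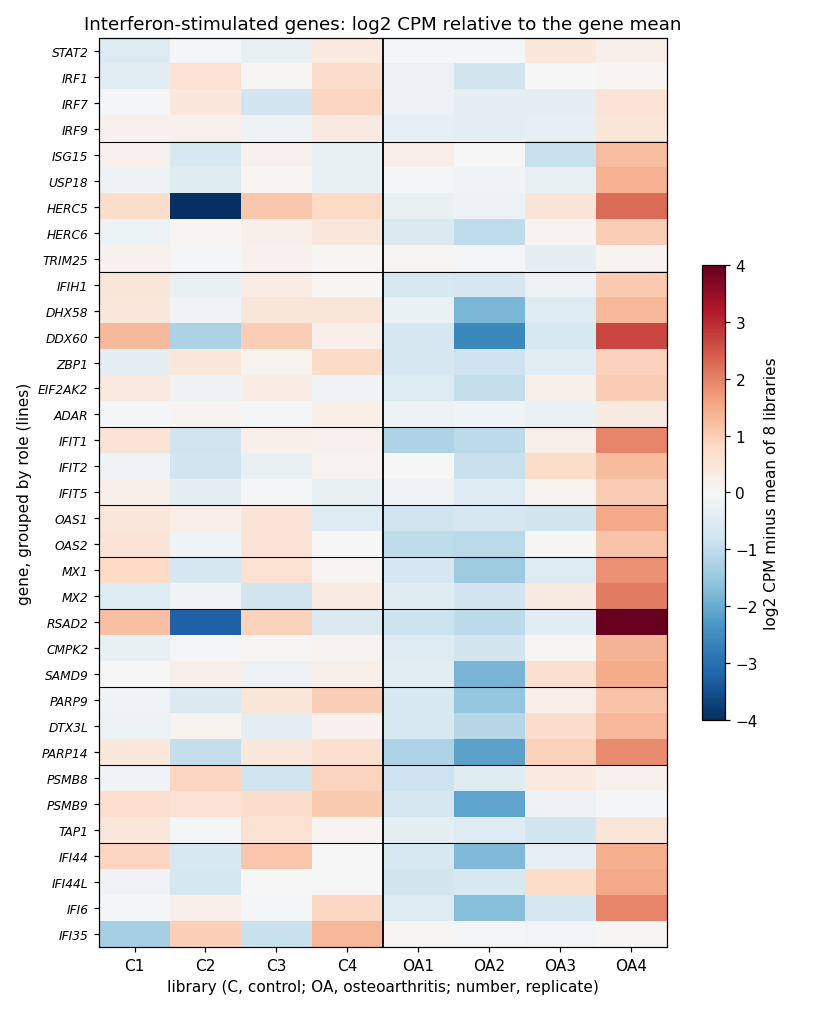
Each row is 1 of the 35 tested genes and each column 1 library (C, control; OA, osteoarthritis), and the colour is log2 CPM minus the gene's mean over the 8 libraries, with the scale ending at 4 in either direction. The column of osteoarthritis replicate 4 is red in most rows, and osteoarthritis replicates 1 and 2 are mostly blue. Several rows do not follow that pattern, among them STAT2, IRF1, TRIM25, PSMB8, PSMB9 and IFI35.

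Across the 8 libraries, edgeR's quasi-likelihood test with Benjamini-Hochberg adjustment over 16020 genes called 0 of the 35 genes higher and 0 lower at an adjusted p under 0.05. Over all genes tested the shares called were 0.225% higher and 0.393% lower. Without adjustment, 1 gene (PSMB9) had a p under 0.05, as did 15.2% of all genes. Groups did not overlap in 1 gene, again PSMB9, against 11.2% of all genes. Of the log2 fold changes, 18 lay above 0 and 17 below, from -1.37 to 1.88. Their median was 0.04, beside 0.00 for all genes, and adjusted p-values ran from 0.210 to 0.998. DESeq2 and limma-voom also called 0 of the genes in either direction.

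The count of genes highest in osteoarthritis replicate 4 was made after its values had been seen. It came to 77.1% of the list, against 8.24% of all genes tested. The 8 genes that were not highest there were STAT2, IRF1, IRF7, TRIM25, PSMB8, PSMB9, TAP1 and IFI35. Osteoarthritis replicate 4 had the highest level of its own group in 32 genes, a count made for the list alone. It held at least 2 times the level of the next highest library in 9 genes, or 25.7% of the list, against 0.0999% of all genes. Only 16 of the 16020 genes tested did so, of which 56.2% were on the list: USP18, CMPK2, RSAD2, DDX60, IFIT1, MX2, MX1, HERC5 and IFI6. Of the other 7, 5 had a symbol (LGALS3BP, UBE2L6, RIGI, AHRR and TMSB15B). LGALS3BP, UBE2L6 and RIGI are themselves known interferon-stimulated genes. Osteoarthritis replicate 2 was the lowest library for 20 genes, or 57.1%, against 13.1% of all genes.

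**Figure D2:**
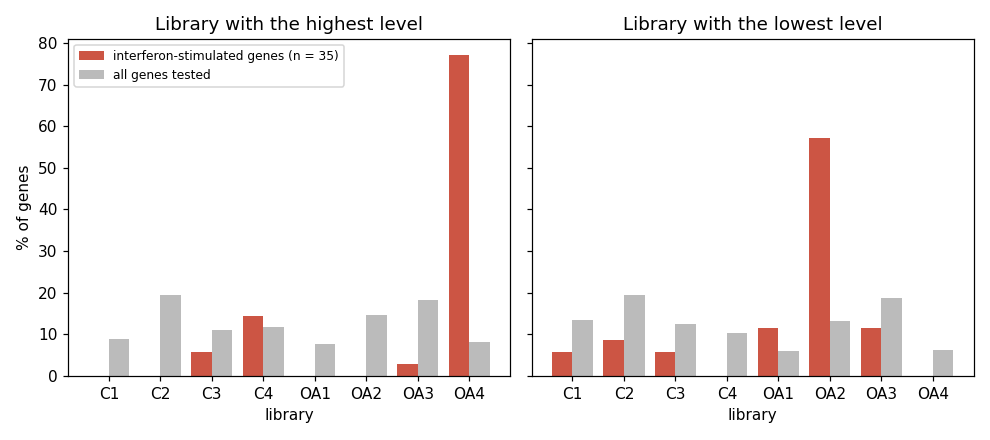
Bars give the percentage of genes whose highest level (left) or lowest level (right) fell in each library, for the 35 tested interferon-stimulated genes (red) and all genes tested (grey). Osteoarthritis replicate 4 held the highest level of 77.1% of the list, and osteoarthritis replicate 2 the lowest level of 57.1%.

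None of the 4 transcription factors passed the test, and their groups overlapped. STAT2 (ENSSSCG00000000396, chr5:21733030-21748960 in Sscrofa11.1), a subunit of ISGF3, stood at 4.37, 6.10, 5.19 and 8.48 FPKM in controls and 6.25, 6.25, 8.63 and 7.37 FPKM in osteoarthritis replicates 1 to 4. Its groups overlapped, control 4 and osteoarthritis replicate 3 were highest, and the log2 fold change was 0.24 ± 0.24 (SE; edgeR adjusted p = 0.675). IRF9 (ENSSSCG00000002002, chr7:75133800-75139641), the DNA-binding subunit of ISGF3, had the highest mean level of the 4 factors. It measured 11.6, 11.5, 8.91 and 13.2 FPKM in controls against 8.10, 7.90, 8.04 and 14.4 FPKM in osteoarthritis. The first 3 osteoarthritis libraries lay close together below every control, while replicate 4 lay above every control, for a fold of -0.23 ± 0.25 (edgeR adjusted p = 0.699).

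IRF1 (ENSSSCG00000014277, chr2:134776122-134783646), a factor induced by interferon gamma as well as by type I interferon, gave 3.57, 7.30, 5.00 and 7.83 FPKM in controls and 4.14, 2.88, 4.76 and 5.16 FPKM in osteoarthritis. Controls 2 and 4 were the highest and the rest overlapped, and the fold stood at -0.48 ± 0.29 (edgeR adjusted p = 0.470). IRF7 (ENSSSCG00000012853, chr2:372235-375572), which amplifies interferon alpha production, gave 2.78, 3.91, 1.67 and 5.29 FPKM in controls and 2.48, 2.25, 2.18 and 4.31 FPKM in osteoarthritis. Control 4 was the highest library and control 3 the lowest, and the fold was -0.28 ± 0.38 (edgeR adjusted p = 0.774). In STAT2, IRF1 and IRF7, unlike IRF9, osteoarthritis replicate 4 was not the highest library.

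Among the genes of the ISG15 system, osteoarthritis replicate 4 was highest in 4 of 5. ISG15 encodes the ubiquitin-like tag, USP18 removes it and also restrains the interferon receptor, and HERC5 and HERC6 are the ligases that attach it in human and mouse cells, respectively. USP18 (ENSSSCG00000000774, chr5:70183321-70227990) measured 1.32, 1.06, 1.58 and 1.23 FPKM in controls and 1.45, 1.36, 1.22 and 4.00 FPKM in osteoarthritis. A total of 7 libraries lay close together and replicate 4 was 2.53 times the highest of them. The fold of 0.63 ± 0.41 (edgeR adjusted p = 0.503) became 0.04 without that library. ISG15 reached 8.34 FPKM in osteoarthritis replicate 4 and 1.86 to 4.20 FPKM elsewhere. HERC5 reached 4.58 FPKM there, and had no count at all in control replicate 2. HERC6 reached 7.03 FPKM there, against 1.71 to 4.77 FPKM in the other 7 libraries.

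TRIM25, a ubiquitin ligase that modifies the RNA sensor RIG-I, had the highest mean level of the 5 genes. TRIM25 (ENSSSCG00000017614, chr12:33184039-33212440) measured 10.1, 8.6, 10.3 and 9.25 FPKM in controls and 9.25, 8.6, 6.90 and 9.62 FPKM in osteoarthritis. Its groups overlapped, control 3 was the highest library and osteoarthritis replicate 3 the lowest, for a fold of -0.15 ± 0.17 (edgeR adjusted p = 0.711).

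The sensors and nucleic acid binding proteins (IFIH1, DHX58, DDX60, ZBP1, EIF2AK2 and ADAR) were all highest in osteoarthritis replicate 4. ADAR, which edits adenosine to inosine in double-stranded RNA, was the most abundant of them per length. ADAR (ENSSSCG00000006543, chr4:95154230-95197308) measured 10.2, 11.4, 10.3 and 12.6 FPKM in controls and 8.85, 9.37, 8.76 and 13.6 FPKM in osteoarthritis. Osteoarthritis replicates 1 to 3 lay below every control and replicate 4 above, and the fold was -0.14 ± 0.20 (edgeR adjusted p = 0.783). IFIH1, which encodes the long double-stranded RNA sensor MDA5, reached 4.14 FPKM in replicate 4 against 1.24 to 2.81 FPKM elsewhere. DHX58, the related regulator LGP2, reached 3.69 FPKM against 0.37 to 2.05 FPKM. DDX60, a helicase that acts with these sensors, was low, with 0.0499 to 1.02 FPKM in 7 libraries and 2.66 FPKM in replicate 4.

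ZBP1, a sensor of Z-form nucleic acid linked to necroptosis, had nearly equal levels in its 2 highest libraries. It measured 5.28 FPKM in osteoarthritis replicate 4 and 4.73 FPKM in control 4, with 1.57 to 2.08 FPKM in osteoarthritis replicates 1 to 3. EIF2AK2, the kinase PKR that halts translation on double-stranded RNA, reached 8.6 FPKM in replicate 4 against 2.19 to 5.60 FPKM elsewhere. Fold changes of the 6 genes ran from -0.36 for ZBP1 to 0.39 for DDX60, and none passed the test.

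The IFIT proteins bind viral RNA ends and block translation. IFIT1 (ENSSSCG00000010452, chr14:101237403-101249486) was the most abundant, with 5.25, 2.11, 4.22 and 4.14 FPKM in controls and 1.53, 1.76, 4.38 and 14.4 FPKM in osteoarthritis. Replicate 4 was 2.75 times the next library and replicates 1 and 2 were the lowest of all, for a fold of 0.49 ± 0.68 (edgeR adjusted p = 0.774) with it and -0.62 without. IFIT2 (ENSSSCG00000010451, chr14:101193421-101204292) stayed low, at 0.553, 0.347, 0.498 and 0.679 FPKM in controls and 0.619, 0.320, 1.05 and 1.53 FPKM in osteoarthritis. Osteoarthritis replicates 3 and 4 were both above the controls, and the fold was 0.76 ± 0.47 (edgeR adjusted p = 0.482). IFIT5 gave 6.22 FPKM in replicate 4 and 2.13 to 3.52 FPKM elsewhere.

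The oligoadenylate synthetases OAS1 and OAS2 make the messenger that activates RNase L. OAS1 (ENSSSCG00000046640, chr14:38851083-38867427) measured 13.8, 12.1, 14.5 and 6.88 FPKM in controls and 5.72, 6.24, 5.96 and 28.9 FPKM in osteoarthritis. The first 3 osteoarthritis libraries lay close together below every control, and replicate 4 was 1.99 times the highest control. The group means were nearly equal, 11.8 ± 3.45 and 11.7 ± 11.5 FPKM (SD, n = 4 each), and the fold was -0.01 ± 0.56 (edgeR adjusted p = 0.998). Without replicate 4 it was -0.99 (edgeR unadjusted p = 0.00817, adjusted p = 0.277). OAS2 gave 16.9 FPKM in replicate 4, 3.75 and 3.56 FPKM in osteoarthritis replicates 1 and 2, and 6.65 to 11.09 FPKM in the other libraries.

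The MX proteins are dynamin-like GTPases that trap viral components. MX1 (ENSSSCG00000012077, chr13:204843049-204868927) measured 11.3, 4.11, 9.95 and 6.89 FPKM in controls and 4.05, 2.38, 4.48 and 23.5 FPKM in osteoarthritis. MX2 (ENSSSCG00000012076, chr13:204798633-204821612) measured 3.05, 3.94, 2.59 and 5.51 FPKM in controls and 3.17, 2.60, 5.66 and 18.5 FPKM in osteoarthritis. Replicate 4 was 2.08 times the next library for MX1 and 3.27 times for MX2. Both genes overlapped between groups, with folds of 0.10 ± 0.69 for MX1 (edgeR adjusted p = 0.965) and 0.99 ± 0.60 for MX2 (edgeR adjusted p = 0.474). Without that library both folds were lower, at -1.15 for MX1 and 0.02 for MX2.

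RSAD2 (ENSSSCG00000008648, chr3:128880853-128897809) encodes viperin, an enzyme that makes a chain-terminating nucleotide, and had the largest fold change of the list. It measured 2.40, 0.0668, 1.98 and 0.665 FPKM in controls and 0.547, 0.466, 0.752 and 17.2 FPKM in osteoarthritis. The counts behind these were 74, 1, 53 and 32 in controls and 21, 13, 60 and 1521 in osteoarthritis. One library was thus 7.18 times the next highest, and the other 7 overlapped. The log2 fold change of 1.88 ± 1.29 (edgeR adjusted p = 0.530) turned to -1.13 when that library was left out. CMPK2, which supplies the nucleotide that viperin converts, measured 3.89 FPKM in replicate 4 and 0.892 to 1.66 FPKM elsewhere. SAMD9, an antiviral protein that restricts poxviruses, measured 3.13 FPKM there and 0.290 to 1.71 FPKM elsewhere. The exonuclease gene ISG20 had 1, 3, 1 and 12 counts in controls and 0, 0, 5 and 11 in osteoarthritis, too few to compare at this depth.

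**Figure D3:**
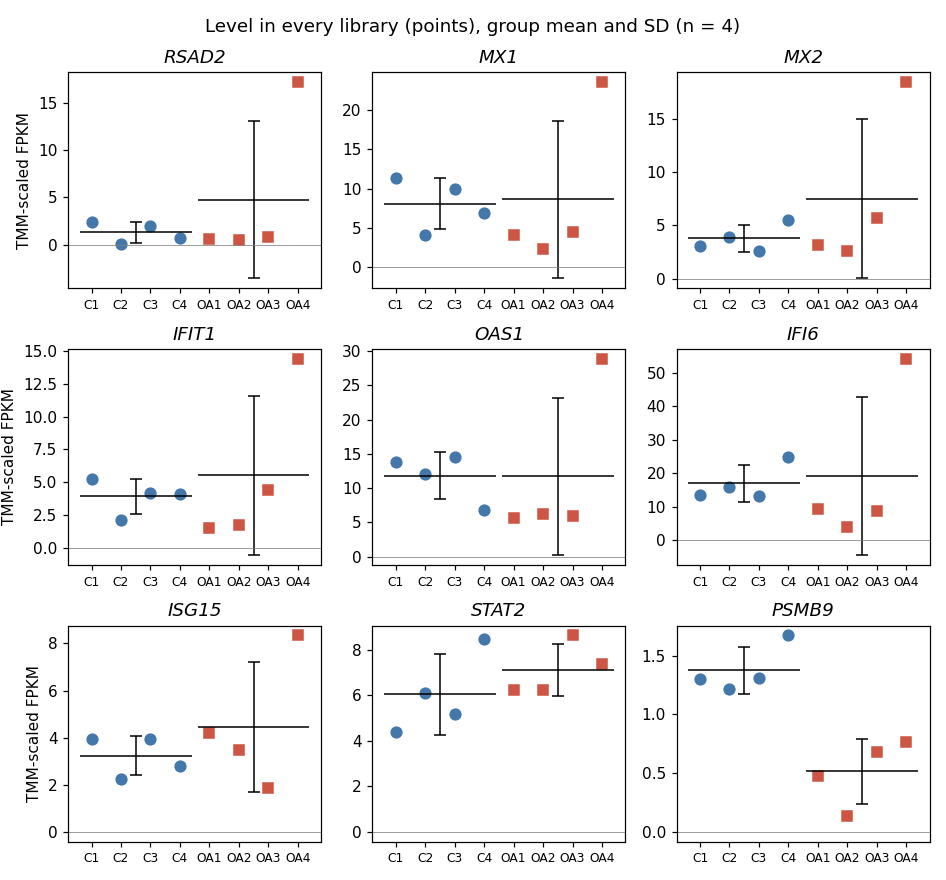
Points give the TMM-scaled FPKM of 9 genes in every library (circles, control; squares, osteoarthritis), with a horizontal line at each group's mean and a bar for its SD (n = 4). In 7 panels osteoarthritis replicate 4 lies above all other libraries, for example at 17.2 FPKM for RSAD2; in the panels of STAT2 and PSMB9 it does not.

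PARP9 and DTX3L form a complex that ADP-ribosylates and ubiquitylates its targets, and PARP14 is a neighbouring family member. DTX3L (ENSSSCG00000011876, chr13:137950266-137961381) was the most abundant, at 1.34, 1.74, 1.21 and 1.77 FPKM in controls and 1.01, 0.706, 2.61 and 4.02 FPKM in osteoarthritis. Osteoarthritis replicates 1 and 2 were below and replicates 3 and 4 above all controls, for a fold of 0.48 ± 0.50 (edgeR adjusted p = 0.696). PARP9 had its highest levels in replicate 4 (1.71 FPKM) and control 4 (1.53 FPKM). PARP14 had its highest levels in osteoarthritis replicates 4 (2.7 FPKM) and 3 (1.35 FPKM), and both genes were lowest in osteoarthritis replicate 2.

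None of the 3 antigen processing genes was highest in osteoarthritis replicate 4. PSMB8 and PSMB9 encode subunits of the immunoproteasome and TAP1 a subunit of the peptide transporter. PSMB9 (ENSSSCG00000001463, chr7:25072133-25077508) measured 1.3, 1.21, 1.31 and 1.67 FPKM in controls and 0.474, 0.140, 0.683 and 0.764 FPKM in osteoarthritis. All 4 osteoarthritis libraries lay below all 4 controls, for a fold of -1.37 ± 0.45 on the log2 scale (edgeR unadjusted p = 0.0140, adjusted p = 0.210). It did not pass the threshold in edgeR or DESeq2 (adjusted p = 0.0560), and passed in limma-voom with sample weights (adjusted p = 0.0364; 0.0364 to 0.459 over all alternatives). Its counts were low, 14 to 62 in controls and 3 to 52 in osteoarthritis.

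TAP1 (ENSSSCG00000025618, chr7:25062772-25071989) measured 6.39, 4.47, 7.20 and 5.05 FPKM in controls and 3.64, 3.26, 2.81 and 6.49 FPKM in osteoarthritis. Osteoarthritis replicates 1 to 3 lay below every control while replicate 4 was second only to control 3, and the fold was -0.51 ± 0.30 (edgeR adjusted p = 0.448). PSMB8 was highest in controls 4 and 2, at 3.52 and 3.44 FPKM, and ran from 1.01 to 2.40 FPKM elsewhere. Its fold was -0.48 ± 0.46 (edgeR adjusted p = 0.661).

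Of the interferon-induced genes with a less defined role, IFI6 had the highest mean level of the whole list, 18.0 FPKM over the 8 libraries. IFI6 (ENSSSCG00000034570, chr6:84852782-84858072), a small membrane protein that limits apoptosis and flavivirus replication, measured 13.5, 16.0, 13.3 and 24.9 FPKM in controls and 9.42, 4.07, 8.58 and 54.2 FPKM in osteoarthritis. Osteoarthritis replicates 1 to 3 lay below every control and replicate 4 was 2.18 times the highest control. The fold was 0.18 ± 0.72 (edgeR adjusted p = 0.933) with that library and -1.20 without it (edgeR unadjusted p = 0.0134, adjusted p = 0.321).

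IFI44L (ENSSSCG00000027660, chr6:134660230-134679212) measured 2.75, 1.83, 2.98 and 3.04 FPKM in controls and 1.79, 1.92, 4.98 and 8.62 FPKM in osteoarthritis. Osteoarthritis replicates 3 and 4 lay above the controls and replicates 1 and 2 at their lower end, for a fold of 0.71 ± 0.49 (edgeR adjusted p = 0.533). Its neighbour IFI44 was highest in replicate 4 (4.93 FPKM) and then in controls 3 and 1 (3.94 and 3.31 FPKM). IFI35 was highest in controls 4 and 2 (3.76 and 2.93 FPKM) and lay between 1.35 and 1.52 FPKM in all 4 osteoarthritis libraries.

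Leaving out osteoarthritis replicate 4 moved most of the fold changes below 0. Of the 35 genes, 30 then had a log2 fold change below 0 and 5 above, 13 of them having crossed from above 0, and the median went from 0.04 to -0.56. Over all genes the median without that library was 0.00. None passed the adjusted threshold (lowest edgeR adjusted p = 0.277, with 0.086% of all genes called). With the unadjusted edgeR p held to 0.05 instead, 12 genes lay lower and 0 higher, or 34.3% of the list, against 5.44% of all genes lower and 5.30% higher. The 12 were IRF9, IFIH1, DHX58, DDX60, ZBP1, OAS1, OAS2, MX1, PSMB9, TAP1, IFI44 and IFI6. The other 3 osteoarthritis libraries all lay below every control in 8 genes (IRF9, DHX58, ZBP1, ADAR, OAS1, PSMB9, TAP1 and IFI6), or 22.9%, against 6.42% of all genes. The mean of those 3 libraries was below the control mean in 30 genes, which was counted for the list alone. Leaving a library out because of its level on these genes ties the value to that choice, and this comparison is a description of the 7 libraries.

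**Figure D4:**
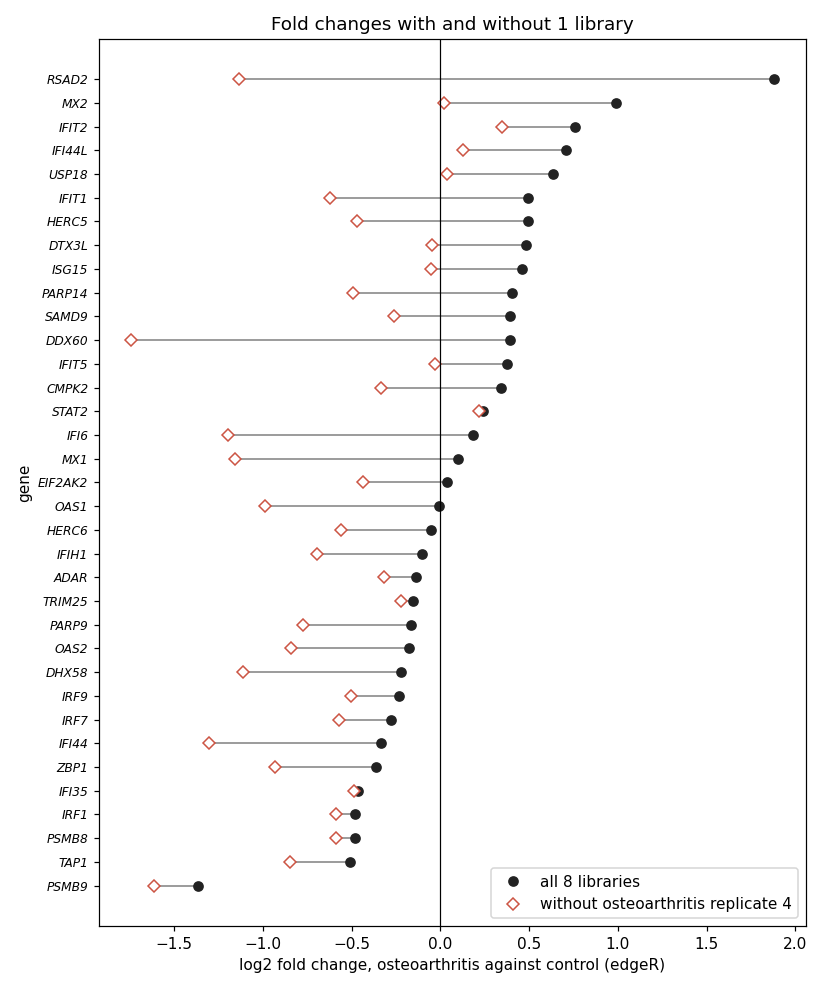
For each of the 35 genes the filled point is the log2 fold change (osteoarthritis against control, edgeR) with all 8 libraries and the open diamond that without osteoarthritis replicate 4. Diamonds lie to the left of the points for every gene but differ in distance, from RSAD2 (1.88 to -1.13) to STAT2 (0.24 to 0.22); 30 of them lie below 0.

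The genes varied together over the libraries. Over the 595 pairs, the median Pearson correlation of log2 CPM was 0.61 and the median Spearman correlation 0.57 across the 8 libraries, with 90.9% of pairs above 0 by Pearson and a range from -0.64 to 0.99. For pairs drawn from all genes the median was 0.00. After each group's mean had been subtracted, the medians were 0.67 and 0.57. Without osteoarthritis replicate 4 they were 0.42 and 0.43 over 7 libraries, with 77.5% of pairs above 0. All pairs share the same libraries and their cell content. Control replicates 1 and 3 resembled each other closely, as did osteoarthritis replicates 1 and 2. Without control replicate 3 the medians were 0.64 and 0.61, and without osteoarthritis replicate 2 they were 0.56 and 0.46.

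IFI6 followed the mean of the other genes most closely (Pearson r = 0.95, 8 libraries), then CMPK2 and HERC6 (0.94 each), IFIT1 (0.92) and MX1 (0.91). The loosest were IFI35 (0.02), STAT2 (0.19), TRIM25 (0.29), PSMB8 (0.33), HERC5 (0.43) and IRF1 (0.46). The value of HERC5 includes control replicate 2, where it had no count and a log2 deviation of -4.79. By role, the 6 sensors ranged from 0.79 to 0.91, while STAT2, IRF1 and IRF7 ranged from 0.19 to 0.52 and IRF9 reached 0.80. RSAD2, the gene with the largest fold change, had r = 0.72. These values depend in part on osteoarthritis replicate 4. Without it, IFI6, CMPK2, HERC6, IFIT1 and MX1 ran from 0.82 to 0.90. RSAD2 fell to 0.37, USP18 from 0.70 to -0.14 and ISG15 from 0.50 to -0.20, while PSMB9 rose from 0.56 to 0.94.

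Of 9660 other genes with a symbol and a mean log2 CPM of at least 2, those reported here as most like the list after subtraction of the group means were LGALS3BP (r = 0.97), UBE2L6, UBA7 and RAD50 (0.96 each) and CRYBG1 (0.94), over 8 libraries. UBA7 encodes the enzyme that activates ISG15 and UBE2L6 the enzyme that carries it to its ligases. LGALS3BP encodes a secreted galectin-binding glycoprotein. It measured 8.31, 4.55, 9.88 and 7.14 FPKM in controls and 1.75, 0.268, 3.92 and 49.4 FPKM in osteoarthritis, so replicate 4 was 4.99 times the next library and replicates 1 to 3 lay below every control. UBE2L6 measured 2.7, 2.83, 3.07 and 3.32 FPKM in controls and 1.1, 1.1, 1.59 and 6.88 FPKM in osteoarthritis, where replicates 1 to 3 again lay below and replicate 4 above every control. UBA7 measured 1.47, 1.44, 2.13 and 6.20 FPKM in osteoarthritis replicates 1 to 4 and 2.67 to 4.86 FPKM in controls. RAD50, a DNA repair protein, moved over a narrower range, 5.87 to 10.3 FPKM. None of these 5 passed the test between groups (lowest edgeR adjusted p = 0.628, UBA7).

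Several of the genes lie side by side in the pig genome. On Sscrofa11.1, 11 pairs lay within 200000 bases of each other, and the median correlation within these pairs was 0.70, or 0.53 without osteoarthritis replicate 4. Over all 595 pairs of the list the medians were 0.61 and 0.42, and an effect of position was not tested. IFIT2, IFIT1 and IFIT5 lie in a row on chromosome 14, as do OAS2 and OAS1, which are 3385 bases apart and correlated at 0.84 (0.73 without that library). RSAD2 and CMPK2 lie 5585 bases apart on chromosome 3, and their correlation of 0.70 was 0.09 without it. MX2 and MX1 lie 21436 bases apart on chromosome 13, and their correlation of 0.62 was -0.02 without it. PSMB8 and TAP1, 1105 bases apart on chromosome 7, had r = -0.07, while TAP1 and PSMB9, 143 bases apart, had 0.63. DTX3L and PARP9 overlap by 395 bases, so their counts may share reads. Estimated counts may also divide ambiguous reads between similar copies such as the IFIT, OAS, MX and HERC pairs, which was not tested.

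Transcripts of interferon genes were also measured. A list of 8 interferon genes set beforehand (IFNB1, IFNA1, IFNG, IFNE, IFNK, IFNW1, IFNL1 and IFNL3) gave 2 with a row, IFNE and IFNK. Of these, 0 were high enough to test, and the rest of that list was not analysed under those symbols. Pig interferon symbols, looked up after the table had been seen, gave 11 genes with a row, IFNE and IFNK among them, of which 5 were tested. Their summed level was 12.8, 16.1, 12.1 and 28.6 CPM (TMM-scaled) in controls and 25.3, 29.4, 28.6 and 34.6 CPM in osteoarthritis. The osteoarthritis libraries lay above controls 1 to 3, control 4 lay among them, and replicate 4 was only slightly above replicate 2. The gene labelled IFN-ALPHA-8 measured 5.43, 3.78, 5.98 and 8.24 CPM in controls and 9.28, 11.8, 12.1 and 17.4 CPM in osteoarthritis. Its groups did not overlap, and the log2 fold change of 1.096 ± 0.286 did not pass the threshold (edgeR adjusted p = 0.128). IFN-OMEGA-6 had 0 to 5 counts in controls and 11 to 47 in osteoarthritis, with a fold of 2.30 ± 0.60 (edgeR adjusted p = 0.127). IFN-ALPHA-15, the interferon gene with the most counts, with 54 to 485 counts per library, had overlapping groups and a fold of 0.47 ± 0.34 (edgeR adjusted p = 0.545). Several of these genes belong to families of similar copies, such as the IFN-ALPHA genes, so values of single copies are uncertain.

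Of the interferon receptors and the JAK-STAT proteins they use, 10 of 11 were tested and 0 passed in either direction, with a median log2 fold change of 0.19. The receptor chain IFNAR1 was lower in all 4 controls (3.65 to 5.50 FPKM) than in osteoarthritis (5.51 to 9.76 FPKM), with a fold of 0.66 ± 0.23 (edgeR adjusted p = 0.230). IFNGR1, a chain of the interferon gamma receptor, had a fold of 0.95 ± 0.40 (edgeR adjusted p = 0.309), and IL10RB, shared by the type III receptor, -0.75 ± 0.38 (edgeR adjusted p = 0.398). Of the 10 genes, 3 were highest in osteoarthritis replicate 4, against 8.24% of all genes tested. That share is also the one to set beside the counts of the lists below.

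Upstream, 16 genes of nucleic acid sensing were tested and 0 passed, with a median of 0.11 and 3 genes highest in replicate 4. The adaptor TRAF3 was lower in every osteoarthritis library (3.53 to 4.74 FPKM) than in controls (5.19 to 7.79 FPKM), at -0.67 ± 0.19 (edgeR adjusted p = 0.160). The transcription factor IRF3, which starts interferon production, was likewise lower, 5.01 to 6.09 against 6.43 to 9.75 FPKM, at -0.58 ± 0.19 (edgeR adjusted p = 0.201). The ligase TRAF6 came next by p, at 0.52 ± 0.21 (edgeR adjusted p = 0.286). RIGI, which encodes the sensor of short RNA with triphosphate ends and is itself induced by interferon, measured 0.776, 0, 0.574 and 0.534 FPKM in controls and 0.312, 0.123, 1.44 and 8.15 FPKM in osteoarthritis. Replicate 4 was 5.64 times the next library, and the fold was 2.37 ± 1.23 (edgeR adjusted p = 0.405).

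Among 12 negative regulators of interferon signalling 0 passed, the median was -0.26 and 0 were highest in osteoarthritis replicate 4. The phosphatase PTPN11 had the smallest p, at -1.21 ± 0.38 (edgeR adjusted p = 0.186), and SOCS3 and SOCS1, which inhibit JAK kinases, followed. SOCS3 measured 27.6 and 26.9 FPKM in controls 2 and 4 and 4.58 to 7.81 FPKM in the other 6 libraries.

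A further list of other interferon-stimulated genes, 37 tested of 50, had 0 that passed and a median of -0.10, which was -0.38 without osteoarthritis replicate 4. Of the 37, 13 were highest in that library, against 8.24% of all genes tested. The smallest p-values belonged to PARP11 (1.15 ± 0.41, edgeR adjusted p = 0.237), TMEM140 (0.68 ± 0.25, edgeR adjusted p = 0.255) and the RNA helicase gene MOV10 (-0.57 ± 0.26, edgeR adjusted p = 0.348). None of these was highest in replicate 4. Of 15 antigen presentation genes tested 0 passed, the median was -0.31 and 5 were highest in replicate 4. The class I gene SLA-7 (-0.51 ± 0.21, edgeR adjusted p = 0.304), the invariant chain CD74 (-0.59 ± 0.28, edgeR adjusted p = 0.366) and the class II regulator CIITA (-0.85 ± 0.41, edgeR adjusted p = 0.376) had the smallest p there.

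**Figure D5:**
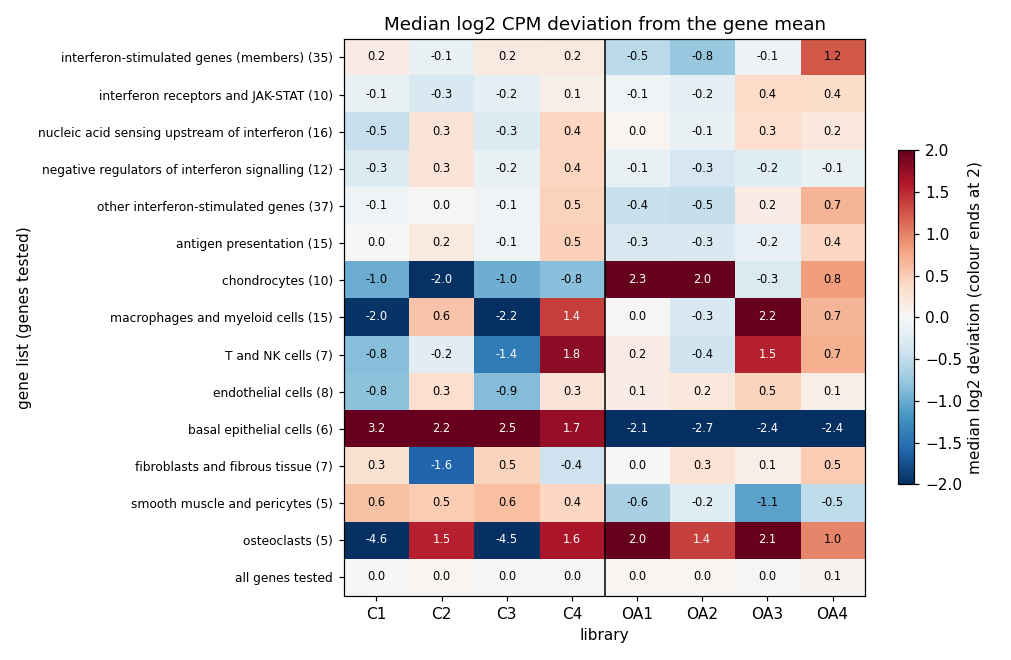
Each cell is the median, over the tested genes of a list, of log2 CPM minus the gene's mean over 8 libraries, with the number of genes in brackets and the colour scale ending at 2 (C, control; OA, osteoarthritis). In osteoarthritis replicate 4 the interferon-stimulated genes stood at 1.24, above their other libraries (-0.77 to 0.20), and the receptor, sensing and regulator lists at 0.36, 0.23 and -0.14.

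Cell type markers are given beside the level of osteoarthritis replicate 4, and few of them were highest there. Of all genes tested 8.24% were highest there, so a count of 0 or 1 in a short list says little. Median log2 deviations of the marker lists in that library ran from -2.39 (basal epithelium) to 0.97 (osteoclasts). They were 0.83 for chondrocytes, 0.72 for T and NK cells and 0.68 for myeloid cells, beside 1.24 for the interferon-stimulated genes. Summed levels of the 15 macrophage and myeloid markers were 265 FPKM in that library, rank 4 of 8, against 35.8 to 483 FPKM in controls and 157 to 557 FPKM in osteoarthritis, and 0 of the 15 genes were highest there. T and NK cell markers summed to 11.4 FPKM (rank 3; 3.39 to 22.2 FPKM in controls, 7.52 to 22.0 FPKM in osteoarthritis), with 0 of 7 tested genes highest there. Plasmacytoid dendritic cells are known for making interferon, and the 3 of their markers that had a row summed to 26.5 FPKM (rank 4; 19.3 to 34.5 FPKM in controls, 22.8 to 38.9 FPKM in osteoarthritis), with 0 of 3 highest there. Their defining markers CLEC4C and LILRA4 were not analysed here, so the part of these cells was not tested. Chondrocyte markers summed to 8710 FPKM (rank 3), with 0 of 10 highest there. The summed markers of erythroid cells had rank 5, those of endothelial cells, B and plasma cells, osteoclasts and smooth muscle rank 6, those of basal epithelium rank 7 and those of fibroblasts rank 8. In these lists 1 gene of the B and plasma cell list and 1 of the fibroblast list were highest in that library. By median log2 deviation, unlike by sum, the fibroblast list was highest in that library, at 0.51 against -1.58 to 0.45 in the others.

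Osteoarthritis replicate 4 also had the largest total count, and the part of depth in its rank was not tested beyond the scalings. The count of genes highest there was 27 under TMM, RLE and upper quartile scaling, 30 under library size alone and 31 in the deposited TPM, which do not correct for composition (22.5% and 23.1% of all genes).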

How the data were processed

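The authors' deposited table holds estimated counts, TPM, log2 TPM and effective gene lengths for 18898 genes in 8 libraries. The submitters' processing notes name Salmon 1.1.0, STAR 2.7.9a, DESeq2 1.26.0, Trim Galore 0.6.7, MultiQC 1.13 and StringTie 2.1.0, and the build Sscrofa11.1. Strand setting and gene filter: not given in the sources used here. TPM as deposited by the authors equals count over length rescaled (largest relative difference 2.5e-14). It was used for that check and 1 scaling alternative, and the deposited log2 values were not used.

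Groups came from the sample titles. Symbols came with the file for 12365 genes, and 564 and 593 more came from reference tables by gene and Entrez identifier. Coordinates are RefSeq's on Sscrofa11.1. All 36 genes matched a row there. Rounded estimated counts passed filterByExpr, were TMM-scaled and were tested with edgeR 4.0.16 (robust quasi-likelihood, R 4.3.3), with p adjusted by Benjamini-Hochberg over 16020 genes. The SE is the fold change over the square root of F. FPKM uses the mean deposited length per gene. Correlations use log2 CPM with a prior count of 2. The labels declare biological replicates but name no animals, so a p-value reflects only the spread among these samples. By correlation of log2 CPM the closest libraries were controls 1 and 3 (0.974), then osteoarthritis replicates 3 and 4 (0.957) and 1 and 2 (0.954). By chi-square per gene they were controls 1 and 3 (29.2) and osteoarthritis replicates 1 and 2 (29.6), with the next pair at 126. Both pairs differed by more than counting noise, which does not show that they are separate animals. All 8 libraries were counted as labelled, with each pair summed as an alternative, the second one chosen after seeing the data.

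Members and lists were chosen with earlier results of these data known. Library values are given for the 4 transcription factors, for the member with the highest mean level in each role, for the 6 largest fold changes among members whose mean log2 CPM reached 0, and for called members. Other lists give called genes and up to 3 with the smallest p, and other genes named (RIGI, ISG15 and the ranges) were added after their values were seen. Of the genes these rules select, 1 is not reported here. Alternatives covered scalings, filters, DESeq2 1.42.0, limma-voom 3.58.1 with and without sample weights, a replicate block, removal of gene classes and each library left out.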

Additional observations from a re-analysis of the deposited data

Results flagged for a closer look

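In 12 of the 35 tested genes, osteoarthritis replicate 4 lay far above the other 3 osteoarthritis libraries, by a gap that exceeded Dixon's 95% critical value for 4 samples. The levels there were 4.31 FPKM for IRF7, 14.4 FPKM for IRF9, 4.00 FPKM for USP18 and 4.58 FPKM for HERC5. They were 4.14 FPKM for IFIH1, 2.66 FPKM for DDX60, 5.28 FPKM for ZBP1 and 13.6 FPKM for ADAR. OAS1 stood at 28.9 FPKM, MX1 at 23.5 FPKM, RSAD2 at 17.2 FPKM and IFI6 at 54.2 FPKM. The same library stood apart above its group in 0.474% of all genes tested and in 34.3% of the list. In the control group 1 gene had a library far from the others, DHX58, at 1.3 FPKM in control replicate 2. Chance flags about 1 in 20 groups. Over all genes, 4.70% of osteoarthritis groups and 6.62% of control groups had such a library on either side. The cause of the high levels in osteoarthritis replicate 4 was not tested.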

How the results depend on the processing

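Under RLE and upper quartile scaling, library size alone, no filter, a stricter filter, DESeq2, limma-voom, removal of mitochondrial, rRNA and haemoglobin genes, controls 1 and 3 summed, osteoarthritis 1 and 2 summed (chosen after seeing the data), and each library left out, 0 of the genes were called in either direction. DESeq2 gave an adjusted p for 34 of them. With limma-voom and sample weights, 1 gene was called lower (PSMB9, adjusted p = 0.0364, where its alternatives ran up to 0.459), and that fit called 3329 genes in all, against 99 in edgeR, 844 in DESeq2, 119 in limma-voom and 214 under library size alone. The median log2 fold change of the list was 0.75 under library size alone, which moves the median of all genes to 0.65, and ran from -0.56 (without osteoarthritis replicate 4) to 0.27 (without osteoarthritis replicate 2) when each library was left out. Across the other alternatives it ran from -0.22 to 0.25 (osteoarthritis 1 and 2 summed). Same-numbered libraries deviated with correlations of -0.02, -0.08, -0.34 and -0.18. The labels do not say whether replicate numbers pair the samples, and these values cannot settle it. The fit with a replicate block called 0 of the list (1 gene in all), with a median of -0.22. Of the alternative values for single genes, 668 stayed within 1 SE of the edgeR value, 65 moved further and 1 became a call. With low counts in PSMB9, DDX60 and IFIT2, depth limits what can be said of single genes.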
